A study of Mus musculus with 7 samples.

Results

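The insulin granule exocytosis machinery is described here as 38 genes chosen by symbol from the 55487 rows of a gene count table of mouse pancreatic islets. Each of the 38 symbols matched 1 row. The set holds SNAREs, synaptotagmins, RAB GTPases with their effectors, priming and docking factors, scaffolds and the disassembly ATPase. Its choice used no value of the table, although earlier results of these data were known. The islets came from mice on a high-fat diet (60% fat) kept up for 15 weeks, and they spent 24 hours in culture medium before RNA was taken. One group of 4 libraries is labelled Control and the other of 3 libraries Traf6 KO, a beta-cell specific knockout of Traf6, whose product is a ubiquitin ligase below Toll-like and interleukin-1 receptors. The genotype of the controls is given only as Control, and nothing in the sources used here gives the driver of the knockout or the age and sex of the mice. Diet and culture were shared by both groups, so all values are those of islets on a high-fat diet.

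Insulin is stored in dense-core granules that are moved to, docked at and primed on the plasma membrane of the beta cell. A rise in cytosolic calcium then lets a vesicle SNARE zip up with SNAREs of the plasma membrane, and the membranes fuse. RAB GTPases and their effectors tether granules, Munc13 and CAPS proteins prime them, synaptotagmins and DOC2 proteins read calcium, and NSF with alpha-SNAP takes used SNARE complexes apart. Other secretory cells of the pancreas, acinar cells among them, use related members of the same families, and bulk islet RNA holds transcripts of all of them.

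Library totals ran from 22104256 to 29917292 counts, and the 38 genes took 0.177% to 0.547% of them. Levels are given as CPM, counts scaled to library size with TMM factors (trimmed mean of M values). Traf6 itself, the targeted gene, was at 17.9, 25.5 and 22.1 CPM across controls 1 to 3, 12.7 CPM for the library labelled control 4, and 14.8, 15.4 and 14.5 CPM across Traf6 KO 1 to 3. The library labelled control 4 was thus the lowest of the 7 for Traf6, and its label was not borne out by this gene. For Traf6 this gave a log2 fold change of -0.40 ± 0.22 (SE, with an adjusted p of 0.416 by edgeR), and the count covers the whole gene, so a deleted exon was not seen apart. Islet endocrine markers were present in every library, with 13 beta-cell genes taking 18.2 to 23.1% of counts in control and 5.83 to 12.2% in Traf6 KO. On the TMM scale 13 of these 13 were lower on average in Traf6 KO (median log2 fold change -0.34), and 0 passed the edgeR test. Exocrine transcripts differed far more. A list of 30 acinar genes took 19.9, 0.479 and 0.456% across controls 1 to 3, 3.18% for the library labelled control 4, and 55.3, 42.3 and 1.6% across Traf6 KO 1 to 3. All 30 were tested and had a log2 fold change above 0, with 0 passing the edgeR test. Sample names carry a code whose letter, called a tag here, is S for Traf6 KO 3 and for the library labelled control 4. It is R for control 3 alone and Q for the rest. The labels do not say what the letter stands for. Libraries tagged Q and R were grouped for this report as a tag series beside S. Traf6 KO 3 was also the only library with Xist above 1 CPM (421 CPM) and had 0 counts of Ddx3y. Xist is made in female cells and Ddx3y lies on the Y chromosome. Any difference between Traf6 KO 3 and the other libraries may thus also be one of sex, which cannot be told apart here. In bulk RNA, fewer cells of a type and less RNA per cell cannot be told apart.

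Among the 38 genes, 24 had a log2 fold change (Traf6 KO over control) below 0 and 14 above 0, beside 49.3% and 50.7% of all genes, with a median of -0.10 beside 0.0051 over all 16203 genes tested. All 38 passed the filter on low counts. By edgeR's quasi-likelihood test 0 of 38 had an adjusted p under 0.05, as did 0% of all genes, and the smallest adjusted p among the members was 0.189, that of Stx4a. At an unadjusted p under 0.05, 3 members lay lower (Stx4a, Syt11 and Syt5) beside 7.17% of all genes, and 2 lay higher (Rab27b and Rims1) beside 8.81% of all genes. In 3 members every Traf6 KO library was below every control (Stx4a, Syt11 and Cplx2), beside 8.68% of all genes, and in 0 members was every Traf6 KO library above every control, beside 5.58%. The DESeq2 Wald test called 2 members lower (Stx4a and Syt11, beside 1.57% of all genes) and 1 higher (Rab27b, beside 3.02%). Limma-voom with quality weights called Stx4a and Syt5 lower, beside 2.33% of all genes, and Rab27b higher, beside 4.13%. The direction of the whole set depended on the scale. When libraries were scaled on 20 genes of endocrine cells in general, 33 of 38 members lay above 0, beside 80.4% of all genes. The members' median was then 0.17, while the median of all genes moved to 0.28. On the TMM scale those 20 genes had a median of -0.21. Of them, 15 lay below 0 and 5 above, beside 49.3% of all genes below. On both of these scales the members' median was below that of all genes. Without Traf6 KO 3 the members' median was -0.24 beside -0.050 for all genes, and without the 3 libraries richest in acinar transcripts (Traf6 KO 1 and 2 and control 1) it was 0.071 beside -0.028. With the level of acinar genes as a covariate it was 0.015 beside -0.0011, so in these last 2 settings the members' median was above that of all genes.

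**Figure D1:**
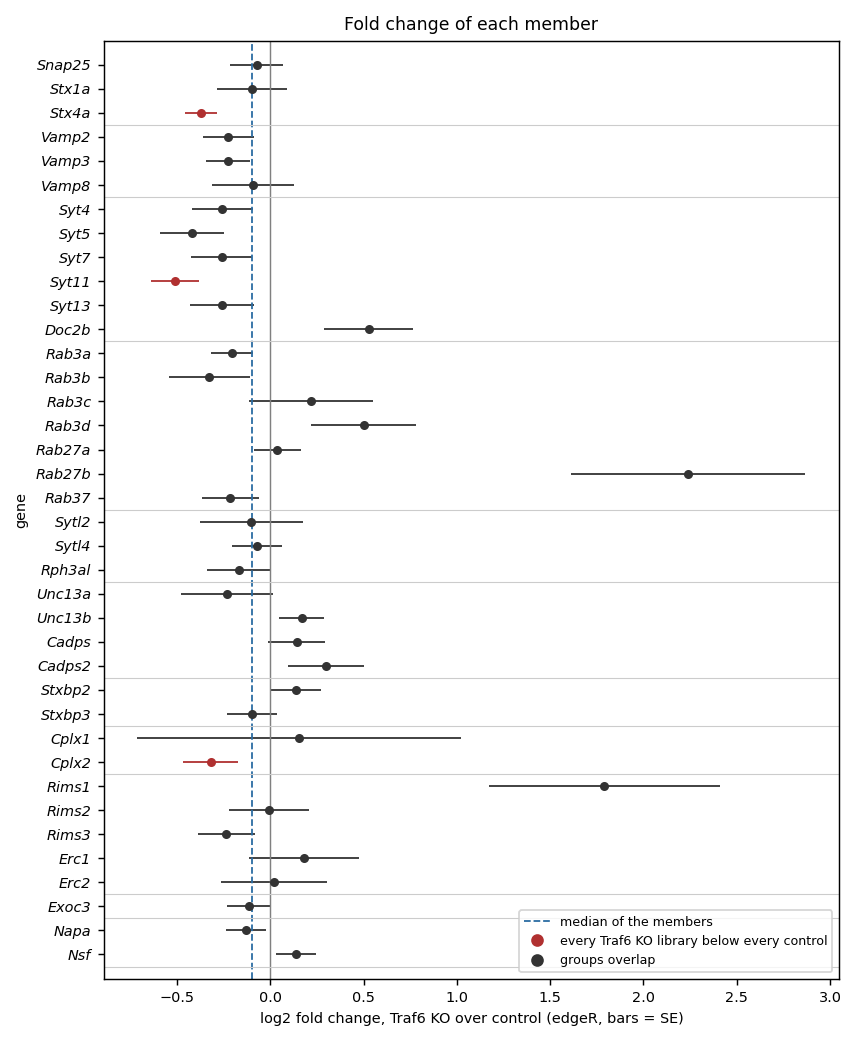
Log2 fold change of each of the 38 genes, Traf6 KO over control, with its standard error from edgeR (4 control and 3 Traf6 KO libraries). Red points are the 3 genes whose groups did not overlap, and the dashed line is the members' median of -0.10, which is 0.17 when libraries are scaled on endocrine genes.

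The target-membrane SNAREs sit on the plasma membrane and receive the granule. Stx4a encodes syntaxin 4 (ENSMUSG00000030805, chromosome 7, 127824294 to 127849019 on GRCm38). Its level was 39.7, 39.6 and 43.2 CPM across controls 1 to 3, 42.7 CPM for the library labelled control 4, and 31.1, 31 and 33.7 CPM across Traf6 KO 1 to 3. All 3 Traf6 KO libraries lay below all 4 controls, and the gap between the groups was wider than the spread within either. Between genotypes its log2 fold change was -0.37 ± 0.087 (SE, with an adjusted p of 0.189 by edgeR), from 41.3 ± 1.93 CPM over the controls (SD, n = 4) against 31.9 ± 1.51 CPM over the knockouts (SD, n = 3). It stayed below 0 in each of the 20 alternatives, with -0.098 when libraries were scaled on endocrine genes and -0.32 with an acinar covariate, and it passed in 2 of them (DESeq2 Wald adjusted p = 0.0188, limma-voom with quality weights adjusted p = 0.0372). Stx1a, the gene of syntaxin 1A, the main syntaxin partner of SNAP-25, was at 7.57, 11 and 10.2 CPM across controls 1 to 3, 10.4 CPM for the library labelled control 4, and 8.15, 8.09 and 11.2 CPM across Traf6 KO 1 to 3. Its groups overlapped, with a log2 fold change of -0.099 ± 0.19 (SE, with an adjusted p of 0.832 by edgeR). Snap25, which gives both remaining helices of the plasma-membrane complex, was at 115, 119 and 113 CPM across controls 1 to 3, 120.0 CPM for the library labelled control 4, and 88.2, 111 and 133 CPM across Traf6 KO 1 to 3. Here the Traf6 KO libraries held both the lowest and the highest value of the 7. The log2 fold change of Snap25 was -0.073 ± 0.14 (SE, with an adjusted p of 0.834 by edgeR).

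Vesicle SNAREs lie on the granule. Vamp2 encodes synaptobrevin 2, the main vesicle SNARE of insulin granules. Its level was 184, 188 and 186 CPM across controls 1 to 3, 171 CPM for the library labelled control 4, and 136, 143 and 188 CPM across Traf6 KO 1 to 3. Traf6 KO 1 and 2 were below every control and Traf6 KO 3 was level with the highest, so the spread within Traf6 KO covered the controls. The log2 fold change of Vamp2 was -0.22 ± 0.14 (SE, with an adjusted p of 0.448 by edgeR), -0.39 without Traf6 KO 3 and 0.048 when scaled on endocrine genes. Vamp8, a vesicle SNARE also found on the zymogen granules of acinar cells, was at 38.8, 33.1 and 38.8 CPM across controls 1 to 3, 36.9 CPM for the library labelled control 4, and 47.4, 33.7 and 23 CPM across Traf6 KO 1 to 3. It was highest in Traf6 KO 1, the library with the largest acinar share, and lowest in Traf6 KO 3, with a log2 fold change of -0.094 ± 0.22 (SE, with an adjusted p of 0.863 by edgeR). With the acinar level as a covariate that value was -0.44, and without Traf6 KO 3 it was 0.13. Vamp3, cellubrevin, ranged from 34.4 to 50.0 CPM over the 7 libraries and had a log2 fold change of -0.23 ± 0.12 (SE, with an adjusted p of 0.383 by edgeR).

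Synaptotagmins and DOC2 proteins carry tandem C2 domains. Syt7 binds calcium with high affinity and acts on insulin granules, whereas Syt4, Syt11 and Syt13 lack residues needed for normal calcium binding, so not every member here is a calcium sensor. Syt13 had the highest level per exon length of all 38 genes. Its level was 1028, 942 and 1039 CPM across controls 1 to 3, 871 CPM for the library labelled control 4, and 792, 911 and 727 CPM across Traf6 KO 1 to 3. The lowest control lay below 1 of the 3 Traf6 KO libraries, and the log2 fold change was -0.26 ± 0.17 (SE, with an adjusted p of 0.481 by edgeR). Syt11 (ENSMUSG00000068923, chromosome 3, 88744700 to 88775164 on GRCm38) was at 30.4, 29.8 and 32.6 CPM across controls 1 to 3, 38.1 CPM for the library labelled control 4, and 25.4, 23.6 and 20.1 CPM across Traf6 KO 1 to 3. All 3 Traf6 KO libraries were below all 4 controls, and the lowest was Traf6 KO 3, which has a low acinar share. Traf6 KO over control gave a log2 fold change of -0.51 ± 0.13 (SE, with an adjusted p of 0.201 by edgeR), from 32.7 ± 3.8 CPM over the controls (SD, n = 4) against 23 ± 2.69 CPM over the knockouts (SD, n = 3). It was -0.61 with the acinar covariate and -0.23 when scaled on endocrine genes, and the DESeq2 Wald test called it (adjusted p = 0.0376). Syt5, a calcium-binding synaptotagmin of dense-core granules, was at 50.4, 51.5 and 43.8 CPM across controls 1 to 3, 58.1 CPM for the library labelled control 4, and 39.7, 28.7 and 45.7 CPM across Traf6 KO 1 to 3. Traf6 KO 3 lay within the controls, and Traf6 KO 1 and 2 lay below them. The fitted log2 fold change was -0.42 ± 0.17 (SE, with an adjusted p of 0.290 by edgeR), and limma-voom with quality weights called it lower (adjusted p = 0.0472).

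Syt7 was at 260.2, 272 and 266 CPM across controls 1 to 3, 271 CPM for the library labelled control 4, and 179.6, 210.4 and 279 CPM across Traf6 KO 1 to 3. Both acinar-rich Traf6 KO libraries were far below the narrow range of the controls, and Traf6 KO 3 was above it. This came to a log2 fold change of -0.26 ± 0.16 (SE, with an adjusted p of 0.457 by edgeR), -0.46 without Traf6 KO 3 and 0.0069 when scaled on endocrine genes. Syt4 had the same arrangement of libraries except that Traf6 KO 3 lay within the controls, with 124 ± 8.13 CPM over the controls (SD, n = 4) against 104 ± 25.3 CPM over the knockouts (SD, n = 3) and a log2 fold change of -0.26 ± 0.16 (SE, with an adjusted p of 0.464 by edgeR). Doc2b, which encodes a calcium sensor that binds syntaxin 4, was a low-level member at 3.05, 2.62 and 2.64 CPM across controls 1 to 3, 3.75 CPM for the library labelled control 4, and 3.62, 4.1 and 5.25 CPM across Traf6 KO 1 to 3. Only Traf6 KO 1 overlapped the controls. The genotype difference was, on the log2 scale, 0.53 ± 0.24 (SE, with an adjusted p of 0.327 by edgeR) and stayed above 0 in each of the 20 alternatives, between 0.36 and 0.80. Doc2b lies 34.9 kb from Rph3al on chromosome 11, the closest pair of members, and Rph3al had a log2 fold change of -0.17.

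RAB GTPases mark the granule surface. Rab27a, which recruits granuphilin to insulin granules, was at 209.8, 200.4 and 195 CPM across controls 1 to 3, 166 CPM for the library labelled control 4, and 179, 212 and 203 CPM across Traf6 KO 1 to 3. Its groups lay over each other, with a log2 fold change of 0.037 ± 0.13 (SE, with an adjusted p of 0.908 by edgeR). Rab3a, the main RAB3 of neurons and a granule RAB of beta cells, was at 96.5, 95.6 and 96.7 CPM across controls 1 to 3, 81.9 CPM for the library labelled control 4, and 73.7, 78.1 and 89.3 CPM across Traf6 KO 1 to 3. Controls 1 to 3 were nearly equal, and the library labelled control 4 fell among the Traf6 KO values. By the fit its log2 fold change was -0.21 ± 0.11 (SE, with an adjusted p of 0.397 by edgeR). Rab37, another insulin granule RAB, had 141 ± 11.6 CPM over the controls (SD, n = 4) against 121 ± 25.7 CPM over the knockouts (SD, n = 3) and a log2 fold change of -0.21 ± 0.15 (SE, with an adjusted p of 0.517 by edgeR). Rab37 is also expressed by mast cells, of whose 7 listed markers Fcer1a, Ms4a2 and Mcpt4 were at 0 in all libraries, Cma1, Tpsb2 and Cpa3 had at most 3, 1 and 4 counts in any library, and Kit, which other cells also express, was at 3.57 to 8.19 CPM. Rab3b ranged from 14.5 CPM (Traf6 KO 1) to 29.4 CPM (control 2), with a log2 fold change of -0.33 ± 0.22 (SE, with an adjusted p of 0.483 by edgeR). Rab3c was at 6.24, 8.26 and 6.65 CPM across controls 1 to 3, 6.61 CPM for the library labelled control 4, and 5.07, 5.71 and 13.2 CPM across Traf6 KO 1 to 3. Traf6 KO 3 alone stood out, and the log2 fold change of Rab3c was 0.22 ± 0.33 (SE, with an adjusted p of 0.779 by edgeR) with it and -0.36 without it.

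Both RABs known from the zymogen granules of acinar cells were highest in the acinar-rich libraries. Rab3d was at 198, 135 and 152 CPM across controls 1 to 3, 124 CPM for the library labelled control 4, and 293, 226 and 128 CPM across Traf6 KO 1 to 3. The order of its 3 highest libraries was that of their acinar shares (55.3%, 42.3% and 19.9%). Among the other libraries Rab3d fell as the acinar share rose. It went from 152 CPM in control 3 (0.456%) to 124 CPM in the library labelled control 4 (3.18%). Between genotypes its log2 fold change was 0.50 ± 0.28 (SE, with an adjusted p of 0.413 by edgeR) and -0.0060 once the acinar level was a covariate. Rab27b was at 2.42, 1.98 and 0.908 CPM across controls 1 to 3, 2.37 CPM for the library labelled control 4, and 15.6, 9.87 and 2.04 CPM across Traf6 KO 1 to 3. Traf6 KO 1 and 2 stood several-fold above all other libraries, while Traf6 KO 3 lay within the controls and control 1, with an acinar share of 19.9%, was close to the library labelled control 4. These levels rest on 172, 183 and 63 counts in Traf6 KO 1 to 3 and 31 to 71 counts in the controls. Traf6 KO over control gave a log2 fold change of 2.24 ± 0.63 (SE, with an adjusted p of 0.205 by edgeR), the largest of the 38. It was 2.73 without Traf6 KO 3, where Rab27b alone of the members passed (edgeR adjusted p = 0.0220, beside 3.43% of all genes called higher and 0.804% lower), and 0.81 with the acinar covariate (adjusted p = 0.487). Without the 3 acinar-rich libraries it was 0.22. The largest acinar shares both stand in Traf6 KO, so those fits cannot tell acinar RNA and genotype apart. The part of acinar RNA in these values was not tested.

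**Figure D2:**
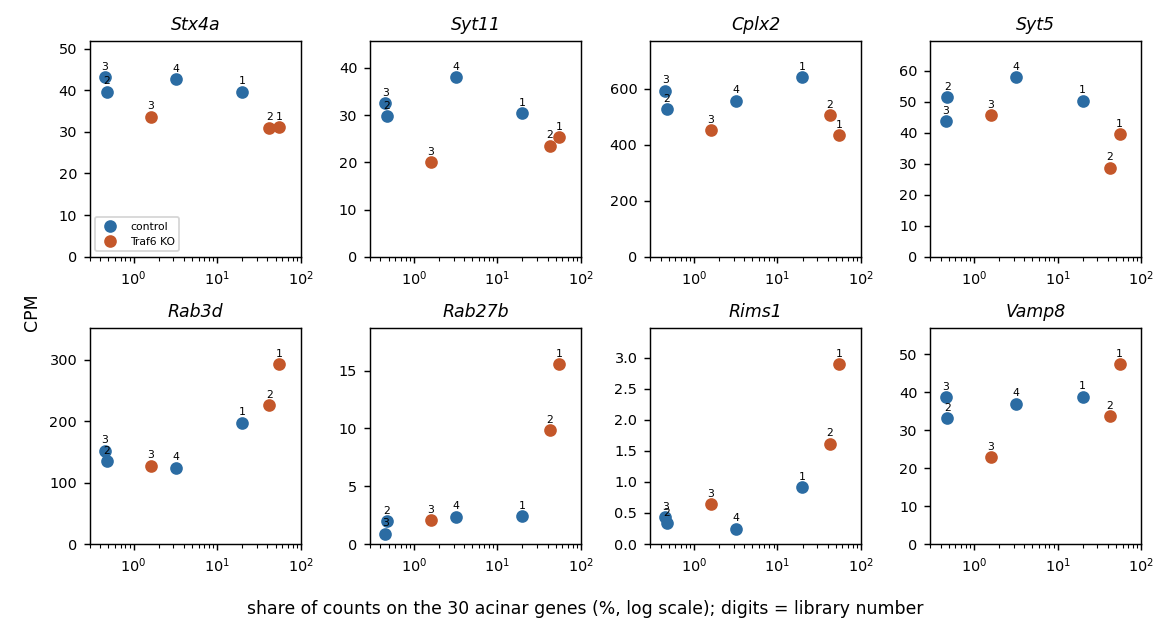
CPM of 8 members against the share of counts on 30 acinar genes (percent, log axis), 1 point per library, with the library number beside it. Stx4a, Syt11 and Cplx2 were lower in all 3 Traf6 KO libraries, whereas Rab3d, Rab27b and Rims1 were highest in Traf6 KO 1 and 2, the libraries with acinar shares of 55.3% and 42.3%.

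RAB effectors link the RAB to the plasma membrane. Sytl4, the gene of granuphilin, which docks insulin granules through Rab27a and syntaxin, was at 208, 223 and 199 CPM across controls 1 to 3, 216 CPM for the library labelled control 4, and 167, 212 and 225 CPM across Traf6 KO 1 to 3. Apart from the low value of Traf6 KO 1 the groups lay in one range, and the log2 fold change was -0.071 ± 0.13 (SE, with an adjusted p of 0.830 by edgeR). Rph3al encodes Noc2, an effector of Rab3 and Rab27, and had 115 ± 11.2 CPM over the controls (SD, n = 4) against 102 ± 25.3 CPM over the knockouts (SD, n = 3), with a log2 fold change of -0.17 ± 0.17 (SE, with an adjusted p of 0.653 by edgeR). Sytl2, an effector of Rab27a, was low at 2.08 to 3.91 CPM, and its log2 fold change was -0.10 ± 0.28 (SE, with an adjusted p of 0.883 by edgeR).

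Priming factors make docked granules ready to fuse. Unc13a, the gene of Munc13-1, was at 66, 107 and 87.9 CPM across controls 1 to 3, 86.7 CPM for the library labelled control 4, and 53.2, 64.6 and 103 CPM across Traf6 KO 1 to 3. Control 1 shared the low range of Traf6 KO 1 and 2, and these are the 3 acinar-rich libraries. The fitted log2 fold change was -0.23 ± 0.25 (SE, with an adjusted p of 0.671 by edgeR) and 0.14 with the acinar covariate. Exons of Unc13a share 3.9% of their length with Colgalt1 on the other strand, whose reads cannot be told apart here. Unc13b, the gene of Munc13-2, was at 30.8, 42.7 and 37.6 CPM across controls 1 to 3, 36.8 CPM for the library labelled control 4, and 40.3, 42.9 and 41.5 CPM across Traf6 KO 1 to 3. Here Traf6 KO 1 and 2 did not stand low. This came to a log2 fold change of 0.17 ± 0.12 (SE, with an adjusted p of 0.513 by edgeR) and stayed above 0 in each of the 20 alternatives. Cadps and Cadps2 encode CAPS1 and CAPS2, which act before fusion of dense-core granules. Cadps was at 73.8, 85.9 and 78.9 CPM across controls 1 to 3, 76.8 CPM for the library labelled control 4, and 65.7, 100.2 and 95 CPM across Traf6 KO 1 to 3. Cadps2, with the lower level per exon length, was at 10.8, 11.2 and 13 CPM across controls 1 to 3, 8.41 CPM for the library labelled control 4, and 16.1, 14.1 and 10.1 CPM across Traf6 KO 1 to 3. Neither differed beyond the spread of its group, with log2 fold changes of 0.14 ± 0.15 and 0.30 ± 0.20 (SE, edgeR adjusted p = 0.674 and 0.493).

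SM proteins hold syntaxins and guide SNARE assembly. Stxbp2, the gene of Munc18-2, found in many secretory cells, was at 66.4, 61.8 and 69.2 CPM across controls 1 to 3, 53.7 CPM for the library labelled control 4, and 80.7, 65.2 and 61.2 CPM across Traf6 KO 1 to 3. Its highest value stood in Traf6 KO 1, and its log2 fold change was 0.14 ± 0.13 (SE, with an adjusted p of 0.642 by edgeR). Stxbp3, the gene of Munc18c, which partners syntaxin 4, had 28.8 ± 2.56 CPM over the controls (SD, n = 4) against 26.9 ± 4.46 CPM over the knockouts (SD, n = 3) and a log2 fold change of -0.10 ± 0.13 (SE, with an adjusted p of 0.744 by edgeR). Stx4a and its partner thus had different arrangements of libraries, and the difference between both was not tested. Complexins bind the assembled SNARE bundle. Cplx2 (ENSMUSG00000025867, chromosome 13, 54371349 to 54383917 on GRCm38) was at 643, 527 and 593 CPM across controls 1 to 3, 558 CPM for the library labelled control 4, and 434, 507 and 453 CPM across Traf6 KO 1 to 3. All 3 Traf6 KO libraries were below all 4 controls, with Traf6 KO 2 the closest to them. The genotype difference was, on the log2 scale, -0.32 ± 0.15 (SE, with an adjusted p of 0.334 by edgeR), -0.38 with the acinar covariate and -0.039 when scaled on endocrine genes. Cplx1 was near the limit of detection, at 0.210, 2.04 and 0.439 CPM across controls 1 to 3, 0.495 CPM for the library labelled control 4, and 0.453, 0.323 and 1.78 CPM across Traf6 KO 1 to 3. Those levels rest on 5 to 73 counts, with control 2 and Traf6 KO 3 above the rest.

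Promoter sequence is shown for the 3 members whose groups did not overlap and for Rab3d, whose highest levels stood in the acinar-rich libraries. Each run is the 250 bases before the RefSeq gene start, 5′ to 3′ on the strand of the gene, from GRCm38.p6. The capitals mark a GC box (GGGCGG), the motif CCAAT, an E-box with the core CAGCTG, the core CATATG or the core CACGTG, or a cyclic AMP element (TGACGTCA), searched on both strands.
Stx4a: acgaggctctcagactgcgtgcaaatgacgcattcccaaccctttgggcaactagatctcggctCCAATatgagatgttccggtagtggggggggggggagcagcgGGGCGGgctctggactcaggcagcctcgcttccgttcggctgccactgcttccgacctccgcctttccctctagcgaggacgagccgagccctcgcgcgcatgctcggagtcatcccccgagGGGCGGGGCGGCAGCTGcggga
Syt11: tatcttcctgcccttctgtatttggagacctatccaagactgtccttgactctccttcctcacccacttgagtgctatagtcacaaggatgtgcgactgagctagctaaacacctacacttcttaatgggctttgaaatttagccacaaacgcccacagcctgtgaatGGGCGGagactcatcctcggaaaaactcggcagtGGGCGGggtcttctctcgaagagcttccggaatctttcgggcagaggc
Cplx2: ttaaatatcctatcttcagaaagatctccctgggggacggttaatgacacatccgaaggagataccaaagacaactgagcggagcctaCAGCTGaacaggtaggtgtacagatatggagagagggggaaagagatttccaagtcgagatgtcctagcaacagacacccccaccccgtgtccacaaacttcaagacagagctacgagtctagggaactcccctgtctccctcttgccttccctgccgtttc
Rab3d: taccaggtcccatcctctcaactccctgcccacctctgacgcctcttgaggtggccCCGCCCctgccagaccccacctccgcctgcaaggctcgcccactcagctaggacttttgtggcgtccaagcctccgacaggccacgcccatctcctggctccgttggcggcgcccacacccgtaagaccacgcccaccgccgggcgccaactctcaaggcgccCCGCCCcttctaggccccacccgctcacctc
The windows lie at chr7:127841558-127841807 (Stx4a, plus strand), chr3:88772600-88772849 (Syt11, minus strand), chr13:54302306-54302555 (Cplx2, plus strand), chr9:21918184-21918433 (Rab3d, minus strand). The Stx4a window held 3 GC boxes, 1 CCAAT and 1 CAGCTG. Of its GC boxes, 2 shared a base, and the CAGCTG followed them directly. Syt11 held 2 GC boxes and Cplx2 a single CAGCTG, so the 3 windows had no motif in common. The Rab3d window held 2 GC boxes and none of the E-boxes. Windows were given for 26 of the 38 members (28 windows). Of these 28, a GC box was in 19, beside 32.7% of all 32851 windows, and a CAGCTG was in 8, beside 13%. CCAAT was in 9, beside 33.8%, CACGTG in 6, beside 6.02%, CATATG in 1 (Rab27a), beside 3.46%, and TGACGTCA in 1 (Stxbp3), beside 1.55%. The RefSeq start used here lies far inside the GENCODE gene model of Stx4a, which begins at 127824294. It lies inside those of Syt11 and, by a few bases, Rab3d. For Cplx2 it lies far upstream of the gene model, which begins at 54371349. Whether the counted transcripts begin at these RefSeq starts was not examined. These matches describe letters in a window and show no binding.

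Active-zone scaffolds gather priming factors and calcium channels at release sites. Rims3 had the highest level per exon length among them, at 118, 112 and 126 CPM across controls 1 to 3, 112 CPM for the library labelled control 4, and 80.0, 123 and 95.2 CPM across Traf6 KO 1 to 3. Traf6 KO 1 and 3 lay below the controls and Traf6 KO 2 within them, and the log2 fold change was -0.24 ± 0.15 (SE, with an adjusted p of 0.472 by edgeR). Rims2, the RIM protein known for insulin release, was at 34.3, 35.1 and 34.3 CPM across controls 1 to 3, 38.8 CPM for the library labelled control 4, and 23, 35.6 and 47.4 CPM across Traf6 KO 1 to 3. The controls were close together and the Traf6 KO libraries lay on both sides of them, with a log2 fold change of -0.0071 ± 0.21 (SE, with an adjusted p of 0.991 by edgeR). Rims1 was the lowest of the 38 per exon length, at 0.911, 0.335 and 0.439 CPM across controls 1 to 3, 0.247 CPM for the library labelled control 4, and 2.9, 1.62 and 0.648 CPM across Traf6 KO 1 to 3. Its 3 highest values stood in the 3 acinar-rich libraries, and the 7 values rest on 7 to 32 counts per library. By the fit its log2 fold change was 1.79 ± 0.62 (SE, with an adjusted p of 0.246 by edgeR) and 0.79 with the acinar covariate. Erc1 and Erc2, the genes of ELKS proteins, had log2 fold changes of 0.18 ± 0.29 and 0.018 ± 0.28 (SE), each with its highest value in Traf6 KO 3 (20.6 and 22.6 CPM).

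The last group holds general factors of membrane traffic. Exoc3, a subunit of the exocyst, which tethers vesicles, was at 46.7, 49.5 and 45.9 CPM across controls 1 to 3, 36.6 CPM for the library labelled control 4, and 40.7, 42.4 and 40.7 CPM across Traf6 KO 1 to 3. Nsf, the ATPase that takes SNARE complexes apart, was at 64.6, 64.5 and 61.7 CPM across controls 1 to 3, 53.1 CPM for the library labelled control 4, and 61.5, 69.6 and 70.2 CPM across Traf6 KO 1 to 3. Napa, the gene of its adaptor alpha-SNAP, was at 207, 208 and 197 CPM across controls 1 to 3, 190.4 CPM for the library labelled control 4, and 197, 172 and 179.9 CPM across Traf6 KO 1 to 3. For each of these 3 genes the groups overlapped, and the library labelled control 4 was the lowest control. Their log2 fold changes were -0.12 ± 0.12, 0.14 ± 0.11 and -0.13 ± 0.11 (SE, edgeR adjusted p = 0.655, 0.546 and 0.567).

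The members also differed by library. Of the 38 genes, 17 had their lowest level of the 7 libraries in Traf6 KO 1, beside 24.8% of all genes tested, and 13 had their highest in Traf6 KO 3, beside 21%. The median of the members, relative to their control mean on the log2 scale, was -0.33, -0.16 and 0.092 in Traf6 KO 1 to 3 and between -0.034 and 0.052 in the 4 controls. Over all genes tested the same median was -0.042, -0.035 and -0.0015 in Traf6 KO 1 to 3. Traf6 KO 1 and 2 had acinar shares of 55.3% and 42.3% and Traf6 KO 3 one of 1.6%. Within the Q- and R-tagged libraries 28 of 38 members lay below 0 with a median of -0.23, beside 53.9% of all genes. Within the S-tagged pair 27 of 38 were higher in Traf6 KO 3 than in the library labelled control 4 and 11 were lower, beside 52.0% of all genes lower, with a median of 0.13 beside -0.021 for all genes. That pair holds 1 library of each genotype, which also differ in Xist, and allows no test. Its libraries differ in immune transcripts too. Macrophage and myeloid genes summed to 526 CPM in the library labelled control 4 and 181 CPM in Traf6 KO 3. Lymphocyte genes summed to 67 and 468 CPM in the same order. These differences cannot be told apart from genotype within the pair. Below 0 in both tag series were 9 members, namely Stx4a, Syt11, Syt5, Cplx2, Syt13, Rims3, Vamp3, Sytl2 and Napa. In the S-tagged pair the difference was largest for Syt11 among these (-0.91), followed by Syt5 and Stx4a (-0.34 each) and Cplx2 (-0.30). Another 8 were above 0 in both, namely Doc2b, Rab3d, Unc13b, Cadps, Cadps2, Stxbp2, Rims1 and Nsf. The most frequent pattern, in 19 members, was a value below 0 in the Q- and R-tagged libraries and above 0 in the S-tagged pair, and it took in Vamp2, Snap25, Stx1a, Syt4, Syt7, Rab3a and Rab37. Vamp8 and Rab27b had the opposite pattern. The share of all genes with each of these patterns was not computed, so the counts do not set the members apart from other genes. Whether the genotype difference differed between tag series was not tested.

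**Figure D3:**
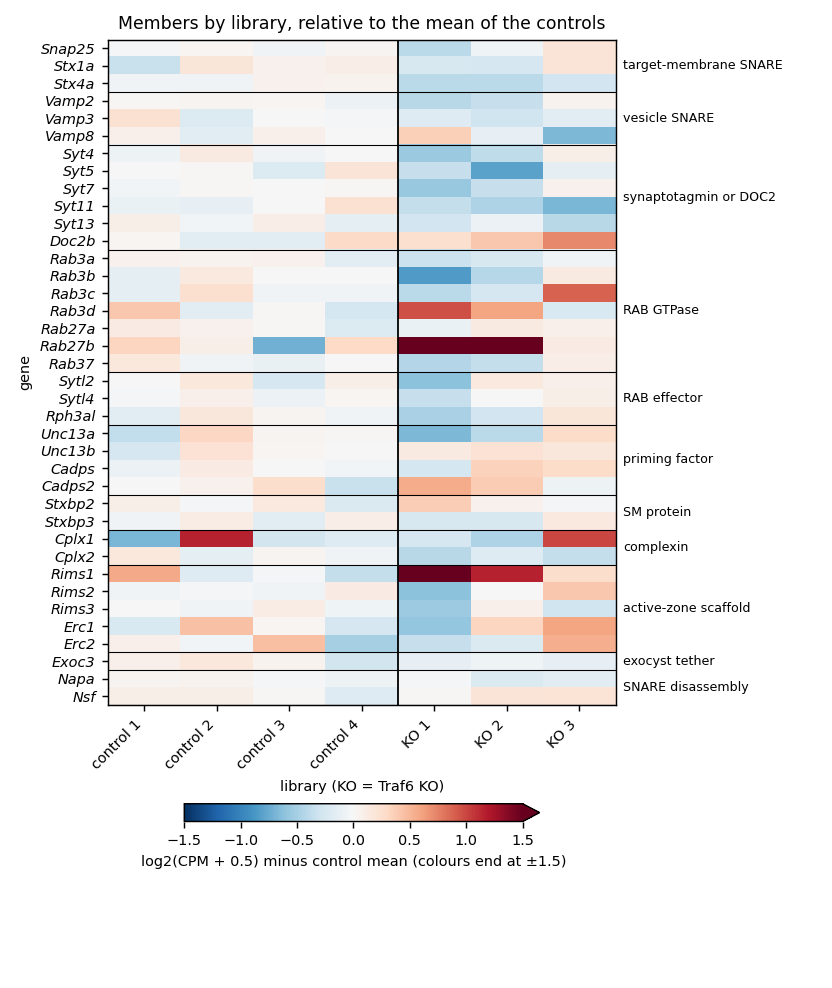
Level of the 38 genes (rows, grouped by role) in each library (columns), as log2(CPM + 0.5) minus the mean of the 4 controls, with red above and blue below the control mean. The members' median was -0.33 in Traf6 KO 1, where blue cells prevail, and 0.092 in Traf6 KO 3, and colours end at 1.5 in either direction.

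Ratios of related genes within a library do not depend on scaling, and 8 pairs were compared as counts per kb of exon. Rab3d over Rab3a was 1.09, 0.746 and 0.836 across controls 1 to 3, 0.807 for the library labelled control 4, and 2.11, 1.54 and 0.759 across Traf6 KO 1 to 3. The acinar-rich libraries held the 3 highest ratios, and the mean difference was 0.65 on the log2 scale (exact two-sided permutation test, p = 0.229). Rab27b over Rab27a was 0.00419, 0.00359 and 0.00169 across controls 1 to 3, 0.00517 for the library labelled control 4, and 0.0317, 0.0169 and 0.00365 across Traf6 KO 1 to 3. Rab27a thus far exceeded Rab27b in every library, with a difference between genotypes of 1.88 (exact p = 0.171). Unc13b over Unc13a was 0.259, 0.223 and 0.238 across controls 1 to 3, 0.235 for the library labelled control 4, and 0.420, 0.368 and 0.222 across Traf6 KO 1 to 3. Traf6 KO 1 and 2 were above the controls and Traf6 KO 3 was below, with a difference of 0.45 (exact p = 0.286). Stx4a over Stx1a was 5.91, 4.05 and 4.78 across controls 1 to 3, 4.62 for the library labelled control 4, and 4.3, 4.32 and 3.4 across Traf6 KO 1 to 3. The difference was -0.27 (exact p = 0.171), and the groups overlapped. Vamp8 over Vamp2 ranged from 0.201 in Traf6 KO 3 to 0.572 in Traf6 KO 1, with 0.290 to 0.356 in the controls and a difference of 0.091 (exact p = 0.8). Cadps2 over Cadps, Cplx1 over Cplx2 and Syt5 over Syt7 differed by 0.18, 0.53 and -0.15 (exact p = 0.686, 0.571 and 0.457). All 8 pairs overlapped between groups, the lowest p after Benjamini-Hochberg adjustment over the 8 was 0.571, and 4 against 3 libraries cannot go below 0.0571.

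**Figure D4:**
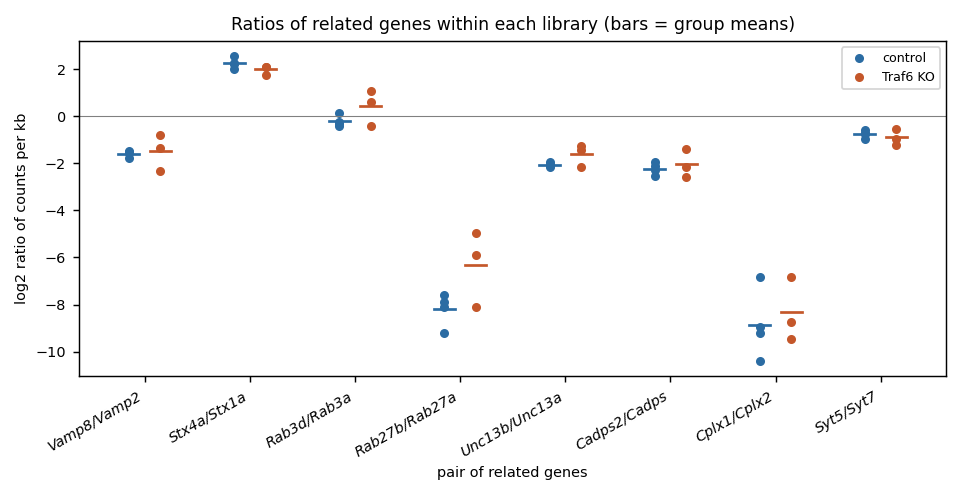
Log2 ratio of counts per kb for 8 pairs of related genes, 1 point per library and a bar for each group mean (4 control, 3 Traf6 KO). The Traf6 KO libraries spread more widely than the controls in 6 of the 8 pairs, Stx4a/Stx1a and Cplx1/Cplx2 being the others, and every pair overlapped between groups.

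Compared per exon length, levels spanned from Syt13 at 239.7 ± 30.7 CPM per kb (SD over 7 libraries) to Rims1 at 0.138 ± 0.129. Cplx2 came second at 107.7 ± 15.1, and Syt13 and Cplx2 were each above the next gene in 7 of 7 libraries. Below them, Napa (51.0), Rab27a (50.3), Vamp2 (44.9), Rab3d (42.8), Sytl4 (40.4) and Rab3a (39.3) followed, each with a range that overlapped that of the next. Within single libraries, Rab3a was above the next gene, Syt7 (33.2), in 7 of 7. The others were each above the next in 3 to 6 of 7, so neighbours from Napa to Rab3a are not resolved. Napa was above Sytl4 and Rab3a in every library, since its lowest value (45.4) exceeded their highest (43.9 and 43.4). A step that held in 7 of 7 libraries without overlap stood below Rims3 (13.8 ± 2.07 against 7.62 ± 0.692 for Nsf), and others below Stxbp3 and below Rims2. Of the 38 genes, 19 had a mean of at least 10 CPM per kb and 7 one under 1 (Erc1, Doc2b, Rab3c, Rab27b, Cplx1, Sytl2 and Rims1). Lengths are those of all annotated exons joined, so a gene with many unused exons reads low.

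**Figure D5:**
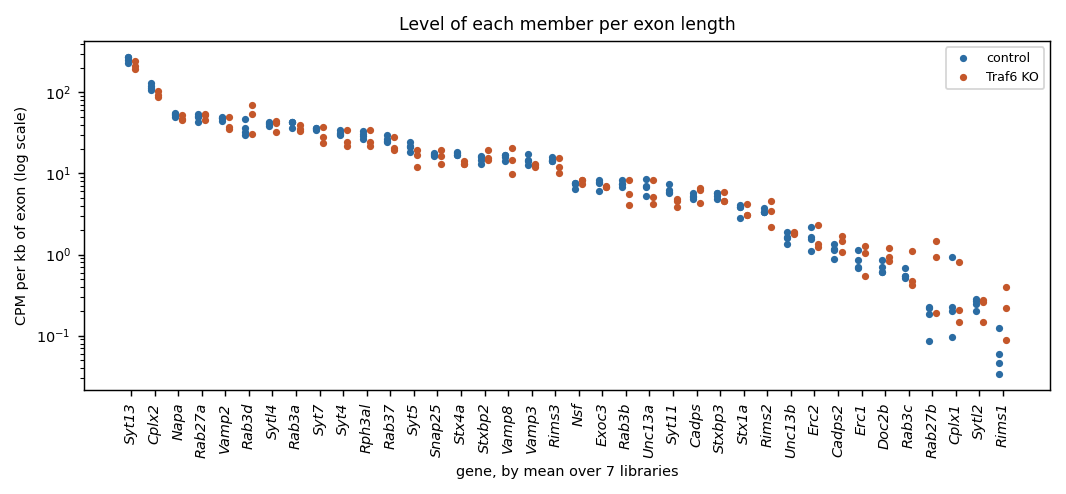
CPM per kb of exon (log axis) of the 38 genes, ordered by their mean over 7 libraries, with 1 point per library. Syt13 and Cplx2 stand above the rest, and the 7 genes at the right end lie below 1 on average.

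A list of 78 further genes of regulated exocytosis was set beside the members. Of these, 73 passed the count filter. Their log2 fold change was below 0 in 32 and above 0 in 41, beside 49.3% and 50.7% of all genes. The median was 0.045 beside 0.0051 for all genes. By edgeR 0 passed. At an unadjusted p under 0.05, 11 of the 73 lay higher and 6 lower, beside 8.81% and 7.17% of all genes. In 9 every Traf6 KO library was above and in 6 below every control, beside 5.58% and 8.68% of all genes. The 6 with the smallest p had these log2 fold changes (± SE). They were Myrip, which links Rab27 to myosin, at 0.92 ± 0.24 (SE, with an adjusted p of 0.201 by edgeR), the secretory carrier gene Scamp2 at -0.30 ± 0.081, the granule glycoprotein gene Sv2a at -0.36 ± 0.10, Syt15 at 1.89 ± 0.59, the scaffold gene Ppfia1 at 0.33 ± 0.11 and Stxbp5, the gene of tomosyn, at 0.38 ± 0.13. Myrip was at 4.59, 5.19 and 5.04 CPM across controls 1 to 3, 4.45 CPM for the library labelled control 4, and 10.7, 11.1 and 5.84 CPM across Traf6 KO 1 to 3. Its level in Traf6 KO 1 and 2, both acinar-rich, was above that in Traf6 KO 3. Sv2a was at 117, 129 and 121 CPM across controls 1 to 3, 112 CPM for the library labelled control 4, and 86.2, 93.4 and 101 CPM across Traf6 KO 1 to 3, with all Traf6 KO libraries below all controls.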

How the data were processed

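The deposited table holds whole-number gene counts of 7 libraries, made by the authors before deposit. The submitters' processing notes name FastQC, STAR 2.6.1b, RSEM 1.3.1 and GRCm38, without role or order. The sources used here do not say whether the counts are rounded estimates or whether strand was used. Reads of overlapping genes, which touch exons of 10 members, then cannot be told apart. Gene IDs and exon lengths came from GENCODE M21, and all 38 members matched. The members and lists were chosen with earlier results of these data known. Genes passed edgeR's filterByExpr with a minimum count of 10 and a total of 15, and 16203 were tested. Main fits used TMM and edgeR 4.0.16's quasi-likelihood test (R 4.3.3) on genotype alone, with Benjamini-Hochberg adjustment over all genes tested and a threshold of 0.05. DESeq2 1.42.0, limma-voom (limma 3.58.1), other scalings and filters, covariates, tag subsets, a replicate block and leaving out each library were alternatives. The script was tested on simulated data. Ratios were tested with exact permutation tests in scipy 1.17.1. Every pair of libraries of the same genotype differed by more than sampling noise, and pairs across genotypes were not compared in this way. Each library was taken as a separate mouse from its tag, and if some shared a mouse the p-values would cover only technical spread. Named genes were Traf6, all members (library values for those with an unadjusted p under 0.05, groups without overlap, paralog pairs or the highest level in their role, and for some more chosen after their values were seen) and the 6 other exocytosis genes with the smallest p.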

Additional observations from a re-analysis of the deposited data

Results flagged for a closer look

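Of 47 groups of 4 control values screened (38 members, the 8 ratios and Traf6), 3 held a value far from the other 3 by Dixon's criterion, and chance alone flags about 1 in 20. Rab3a was at 81.9 CPM in the library labelled control 4, against 96.5, 95.6 and 96.7 CPM in controls 1 to 3. That library is also the lowest for Traf6. Cplx1 was at 2.04 CPM in control 2, against 0.210 to 0.495 CPM in the remaining controls, from 73 counts against 6 to 15. The ratio of Cplx1 to Cplx2 in control 2 was accordingly high, at 0.00871 counts per kb over counts per kb, against 0.000736, 0.00167 and 0.00200. Traf6 KO 3 held a Cplx1 level close to that of control 2, at 1.78 CPM.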

How the results depend on the processing

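The median of the 38 members was -0.10, and it lay between -0.16 and 0.015 in the alternatives of test, filter, tag term, block, upper-quartile and DESeq2 scaling and acinar covariate. It moved beyond the spread between libraries to 0.17 when scaled on endocrine genes, to 0.071 with the acinar-rich libraries left out and to -0.24 without Traf6 KO 3, and was -0.23 in the Q- and R-tagged libraries alone. Leaving out 1 library at a time gave -0.24 to -0.025. The edgeR test called 0 members, the DESeq2 Wald test 1 higher and 2 lower, limma-voom with quality weights 1 higher and 2 lower, and edgeR without 1 library 0 to 1 higher and 0 lower. Over all genes the calls were 0 higher and 0 lower by edgeR, 489 and 255 by DESeq2, 669 and 377 by limma-voom with quality weights, 568 and 133 without Traf6 KO 3, 675 and 1 when scaled on endocrine genes, 3 and 0 with the acinar covariate and 61 and 6 with the acinar-rich libraries left out, where Traf6 KO 3 is the only knockout and is assumed to vary like the controls. The replicate numbers of the labels were tried as a block. Same-numbered libraries deviated together with correlations of 0.60, -0.18 and 0.45 for numbers 1 to 3. Control 2, Traf6 KO 2 and Traf6 KO 3 each correlated better with another number. The labels name no shared litter, so the libraries share only a number. With the replicate block the members' median was -0.12, 0 members passed and 6 genes were called higher. The sign was the same in all 20 alternatives for 10 members (Stx4a, Syt5, Syt11, Doc2b, Rab27b, Unc13b, Cadps, Cplx2, Rims1 and Nsf). Log2 fold changes of the other members, none of which passed the test, turned sign as follows, and the cause was not tested. With scaling on endocrine genes the values were Snap25 0.20, Stx1a 0.16, Vamp2 0.048, Vamp3 0.057, Vamp8 0.20, Syt4 0.0090, Syt7 0.0069, Syt13 0.022, Rab3a 0.071, Rab37 0.059, Sytl2 0.16, Sytl4 0.20, Rph3al 0.096, Unc13a 0.025, Stxbp3 0.17, Rims2 0.25, Rims3 0.038, Exoc3 0.17 and Napa 0.15. With the acinar covariate the values were Snap25 0.050, Stx1a 0.16, Rab3d -0.0060, Sytl4 0.016, Rph3al 0.066, Unc13a 0.14, Stxbp3 0.013 and Rims2 0.19. With the acinar-rich libraries left out the values were Snap25 0.18, Stx1a 0.070, Vamp2 0.044, Syt4 0.056, Syt7 0.041, Rab3b 0.078, Rab3d -0.11, Rab37 0.15, Sytl2 0.068, Sytl4 0.073, Rph3al 0.12, Unc13a 0.13, Cadps2 -0.11, Stxbp2 -0.017, Stxbp3 0.12 and Rims2 0.39. With only libraries tagged Q or R the values were Vamp8 0.13, Rab3c -0.38, Rab27a -0.047, Cplx1 -1.24, Erc1 -0.16 and Erc2 -0.47. With limma-voom with quality weights the values were Rab3c -0.15, Sytl2 0.094, Cplx1 -0.57 and Erc2 -0.24. With upper-quartile factors the values were Rab27a -0.0016 and Erc2 -0.017. With the replicate block the values were Rab27a -0.030 and Erc2 -0.17. With tag series as a term the values were Cplx1 -0.20 and Erc2 -0.011. With DESeq2 size factors in edgeR the values were Rims2 0.012. With the DESeq2 Wald test the values were Rims2 0.013. With no low-count filter the values were Erc2 -0.0032. Leaving out 1 library at a time, those that turned ranged as follows: Snap25 -0.23 to 0.073, Vamp8 -0.37 to 0.13, Rab3c -0.36 to 0.45, Rab27a -0.024 to 0.11, Sytl2 -0.25 to 0.13, Sytl4 -0.16 to 0.057, Cplx1 -1.07 to 1.22, Rims2 -0.28 to 0.23, Erc1 -0.076 to 0.46, Erc2 -0.33 to 0.20. Ratios turned sign only in fits without 1 library or without the S-tagged libraries, which gave Cplx1 over Cplx2 -0.26. Their ranges without 1 library were -0.25 to 0.50 for Vamp8 over Vamp2, -0.15 to 0.45 for Cadps2 over Cadps, -0.23 to 1.2 for Cplx1 over Cplx2 and -0.34 to 0.0047 for Syt5 over Syt7. Depth limited Cplx1, Rims1 and Rab27b, whose counts were at most 73, 32 and 183 per library.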

Other observations

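Relative to 20 genes shared by islet endocrine cells (chromogranins, secretogranins, prohormone convertases and the like), the summed CPM of the 38 members was 9.89, 10.1 and 9.74% across controls 1 to 3, 10.3% for the library labelled control 4, and 10.6, 12.2 and 11.5% across Traf6 KO 1 to 3. The knockout values were above those of the controls. Of the 20 genes, 15 had a log2 fold change below 0 and 5 above 0 on the TMM scale, beside 49.3% of all genes below. In 8 of the 20 every Traf6 KO library was below every control, beside 8.68% of all genes, and 0 passed the edgeR test. Scaled on them, 80.4% of all genes lay above 0, with a median of 0.28 beside 0.17 for the members. The endocrine genes themselves summed to 31839.6 to 33683 CPM in Traf6 KO and 38750.5 to 44000.1 CPM in control, and the members to 3548 to 3899 and 3974 to 4351 CPM. Syt13 made up 22.4% of the members' sum, so it weighs heavily in these shares. Rab3d, which was highest in the acinar-rich libraries, is also part of that sum. Shares without either gene were not computed, so the separation of the groups may rest on single members. Alpha-cell genes took 0.918%, 1.60% and 3.77% of counts in Traf6 KO 1 to 3 and 2.08% to 3.27% in the controls. The part of endocrine cell makeup in the members' values was not tested.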
